A study of Mus musculus with 16 samples.

Results

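The Sox genes other than Sox9 were examined in ChIP-seq peak lists of 3 histone H3 marks from cells sorted from mouse skin. They are 10 genes chosen by name, out of 22367 protein-coding genes: Sox2, Sox4, Sox5, Sox6, Sox7, Sox11, Sox13, Sox17, Sox18 and Sox21. For each gene, all peaks within 3000 bp of its annotated start in mm9 were taken (a window of 6001 bp), together with all peaks over the gene body. The 4 populations came from skin of male CD1 x FVB wild-type mice, and the animals of a stage were pooled. EA-HFSCs are the CD34+/α6-integrin+ bulge cells of early anagen (PD22 to PD25), when hair follicle stem cells proliferate. LC-HFSCs are quiescent bulge cells of late catagen (PD38 to PD44) with the same CD34+/α6-integrin+ sort. The non-HFSCs sorted at the same times, nEA cells (PD22 to PD25) and nLC cells (PD38 to PD44), were CD34-/α6-integrin+ and mostly epidermis and lower outer root sheath. The chromatin was cut to mononucleosomes and precipitated with antibodies to H3K4me3, H3K27me3 or H3K9me3, and the 4 IgG samples were the authors' background. There is 1 list for each mark in each population (12 in all), made from pooled replicates, so no difference between populations below has a replicate check.

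Sox proteins are transcription factors that bind the minor groove of DNA through an HMG box and bend it, and they set cell identity in many embryonic tissues and stem cells. They fall into groups by sequence, and members of a group often act in the same tissue: SoxB in early neural cells, SoxC in progenitors, SoxD in cartilage beside Sox9, and SoxF in blood and lymph vessels. H3K4me3 lies at the starts of active or poised genes, H3K27me3 is laid down by Polycomb repressive complex 2 over silent developmental genes, and H3K9me3 is typical of heterochromatin. A start with both H3K4me3 and H3K27me3 is called bivalent. In a list made from many cells, both marks on the same nucleosomes and each mark in different cells cannot be told apart.

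The promoters of Sox2, Sox21, Sox13 and Sox11 are shown because their H3K27me3 peaks lay in 3 different sets of populations. Each run is the 250 bases before the start in RefSeq (table of build GRCm38.p6), read 5′ to 3′ on the strand of the gene, with every CpG in capitals. Each matched mm9 exactly once near its gene.
Sox2: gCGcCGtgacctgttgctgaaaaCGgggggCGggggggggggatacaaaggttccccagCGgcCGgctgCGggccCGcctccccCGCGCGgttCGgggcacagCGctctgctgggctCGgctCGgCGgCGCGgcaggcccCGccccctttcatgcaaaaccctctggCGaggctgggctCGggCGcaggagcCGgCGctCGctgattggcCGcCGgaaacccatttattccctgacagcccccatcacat
Sox21: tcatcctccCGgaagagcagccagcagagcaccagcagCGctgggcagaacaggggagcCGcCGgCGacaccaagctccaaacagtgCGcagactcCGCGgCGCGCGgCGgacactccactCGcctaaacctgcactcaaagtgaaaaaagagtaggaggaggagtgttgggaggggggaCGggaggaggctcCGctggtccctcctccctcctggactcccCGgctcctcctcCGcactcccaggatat
Sox13: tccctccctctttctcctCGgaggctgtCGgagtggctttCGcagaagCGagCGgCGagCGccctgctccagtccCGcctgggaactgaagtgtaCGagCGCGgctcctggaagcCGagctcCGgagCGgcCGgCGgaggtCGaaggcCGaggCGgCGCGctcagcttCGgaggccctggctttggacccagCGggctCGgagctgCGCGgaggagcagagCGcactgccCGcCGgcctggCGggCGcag
Sox11: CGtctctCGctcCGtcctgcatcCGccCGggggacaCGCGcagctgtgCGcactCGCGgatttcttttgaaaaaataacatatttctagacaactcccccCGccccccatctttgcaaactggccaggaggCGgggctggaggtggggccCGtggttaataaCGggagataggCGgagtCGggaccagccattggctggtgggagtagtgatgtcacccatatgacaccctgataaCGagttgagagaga

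In mm9 these sequences lie at chr3:34548667-34548916 on the plus strand (Sox2), chr14:118636253-118636502 on the minus strand (Sox21), chr1:135320790-135321039 on the minus strand (Sox13) and chr12:28027584-28027833 on the minus strand (Sox11). The Sox13 start in RefSeq is 165 bp inside the annotated one, and the others are within 10 bp of it. All 4 hold many CpGs: 31 in Sox13, 27 in Sox2 and 17 each in Sox21 and Sox11, where the median over 32851 RefSeq promoters was 6. Fewer CpGs were found in 94.8% of those promoters than in Sox13 and in 91.4% than in Sox2. In the EA-HFSC lists, H3K4me3 peaks covered all 250 bases of each of the 4. The H3K27me3 peaks of EA-HFSCs covered all 250 bases of Sox21 and Sox11 and none of Sox2 or Sox13. In nEA cells and nLC cells the H3K27me3 peaks covered all 250 bases of Sox2 and Sox11 and none of Sox21. At Sox13 the H3K27me3 peaks of both non-HFSC populations lay on either side of the sequence shown, or upstream of it, and covered 0 bases of it.

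RefSeq promoters were found for 7 of the 10 genes, with 12 promoters in all. The 6 promoters of Sox6 had between 1 and 10 CpGs, that of Sox4 had 11 and that of Sox5 had 3. The Sox6 promoters at 0 and 7697 bp from the annotated start had 9 and 10 CpGs. The other Sox6 promoters lay from 43658 to 237135 bp inside the gene and had 1 or 2. The Sox5 promoter lay 834871 bp inside the gene, where no list had a peak within 3000 bp. Its CpG count is therefore not that of the Sox5 start window. The 6 letters ACAATG, or CATTGT on the other strand, which match the core bound by many Sox proteins, occurred in 10.7% of all RefSeq promoters. They were absent from the 4 sequences shown and from that of Sox4. The Sox5 promoter held 1 match, and 2 of the 6 Sox6 promoters held matches, those 43658 and 214034 bp inside the gene.

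An H3K4me3 peak reached the start window of all 10 genes in EA-HFSCs, of 7 in LC-HFSCs, of 8 in nEA cells and of 7 in nLC cells. Over all protein-coding genes the shares were 60.4%, 53.9%, 59.6% and 56.6% in the same order. H3K4me3 in all 4 populations was found at 7 of the 10, beside 52.9% of all genes: Sox4, Sox5, Sox6, Sox7, Sox13, Sox18 and Sox21. Sox2, Sox11 and Sox17 had H3K4me3 in EA-HFSCs and none in LC-HFSCs, which is 3 of the 10 genes with an EA-HFSC peak, beside 11.0% of all such genes.

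H3K27me3 reached the start windows of 6 of the 10 genes in EA-HFSCs, 2 in LC-HFSCs, 7 in nEA cells and 7 in nLC cells. The shares of all genes were far lower, at 13.0%, 3.39%, 15.6% and 11.9%. Only Sox4 and Sox7 of the 10 had no H3K27me3 peak in any of the 4 lists. Most genes had none in a given list, since no list marked more than 15.6% of all genes. The populations did not mark the same genes: Sox17 and Sox18 had H3K27me3 in all 4 lists (3.22% of all genes), Sox2 and Sox13 in both non-HFSC lists and neither HFSC list (2.06%), and Sox21 in EA-HFSCs alone (2.10%). Sox5, Sox6 and Sox11 had it in every list except that of LC-HFSCs, a pattern whose share of all genes was not counted. Thus 4 of the 6 genes with H3K27me3 in EA-HFSCs (Sox5, Sox6, Sox11 and Sox21) had none in LC-HFSCs, close to the 74.5% of all genes with an EA-HFSC peak.

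H3K9me3 was called at 9 of the 10 starts in EA-HFSCs, at none in LC-HFSCs, at none in nEA cells and at 3 in nLC cells. Among all genes the shares were 45.2%, 0.295%, 2.80% and 11.6%. Sox13 was the gene of the 10 without H3K9me3 at its start in any population. A start without it was common, since even in EA-HFSCs most of all genes had none. All 9 starts marked in EA-HFSCs were without a peak in LC-HFSCs, as were 99.6% of all genes marked in EA-HFSCs, so the 9 of 9 is at the background. The lists themselves differ in length, from 14718 to 24498 peaks for H3K4me3, 1909 to 25534 for H3K27me3 and 1414 to 42277 for H3K9me3, with LC-HFSCs the shortest each time. The lists hold no read numbers. The methods of the study state that more reads were used for LC-HFSCs than for EA-HFSCs, as approximate ranges not split by mark. They give no separate range for nEA cells or nLC cells. The part of read depth in the length of the lists was not tested.

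**Figure D1:**
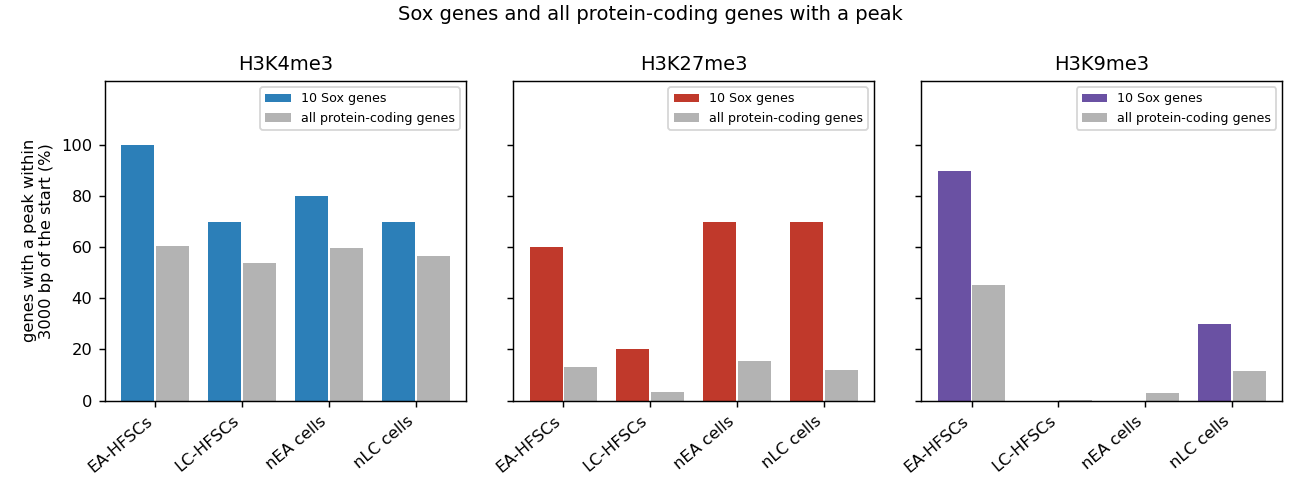
Percent of the 10 Sox genes (coloured bars) and of all 22367 protein-coding genes (grey bars) with a peak within 3000 bp of the start, for each mark and population. The H3K27me3 bars of the Sox genes stand above the grey bars in every population, while no Sox gene has H3K9me3 in LC-HFSCs or nEA cells.

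Bivalent starts were found at 6 genes in EA-HFSCs (7.90% of all genes), 1 in LC-HFSCs (1.01%), 5 in nEA cells (9.48%) and 4 in nLC cells (5.63%). With lists of equal length the counts were 2, 1, 1 and 2, and with scores of at least 100 they were 4, 0, 4 and 2. Sox18 was the gene that was bivalent in all 4 populations in the full lists. All 3 marks were present at 6 starts in EA-HFSCs, namely Sox5, Sox6, Sox11, Sox17, Sox18 and Sox21, where 6.30% of all genes had them. This count was 3 with scores of at least 100 and 1 with lists of equal length, and Sox17 entered it through 391 bp of H3K4me3 at the edge of its window. In nLC cells all 3 were at Sox5 and Sox18, 2 genes beside 0.993% of all. No Sox gene had all 3 in LC-HFSCs or nEA cells, where 0.00447% and 0.420% of all genes did.

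Where H3K4me3 and H3K27me3 met at a start, most of the H3K4me3 cover, summed over the genes of a population, lay under H3K27me3 peaks. H3K27me3 itself covered 30874 bp of the 6 such windows in EA-HFSCs, each of 6001 bp. A high share of another mark under it therefore follows largely from that cover, and overlap beyond it was not tested. At the 6 bivalent starts of EA-HFSCs, 90.0% of the bases under H3K4me3 peaks were also under H3K27me3 peaks, while 53.4% of the H3K27me3 cover was shared with H3K4me3. At each of Sox6, Sox11, Sox17 and Sox18 the share of H3K4me3 was 100%. At Sox6, Sox17 and Sox18 H3K27me3 covered all 6001 bp of the window, so the share there could only be 100%. Sox5 was the exception, with 44.0%, its H3K27me3 peak covering only bases upstream of the start. At the 6 starts with all 3 marks in EA-HFSCs, 94.9% of the H3K9me3 cover was shared with H3K27me3. At the bivalent starts of the non-HFSCs, 86.3% of the H3K4me3 cover in nEA cells (5 genes) and 62.4% in nLC cells (4 genes) was shared with H3K27me3. H3K27me3 covered 24203 bp of those 5 windows and 12936 bp of those 4. The nLC shares were lowest at Sox13 and Sox5, with 27.4% and 26.7%. In nLC cells, 73.2% of the H3K9me3 cover at Sox5, Sox17 and Sox18 was shared with H3K27me3, and at Sox5 these marks shared 0 bp. H3K27me3 covered 13399 bp of these 3 windows.

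**Figure D2:**
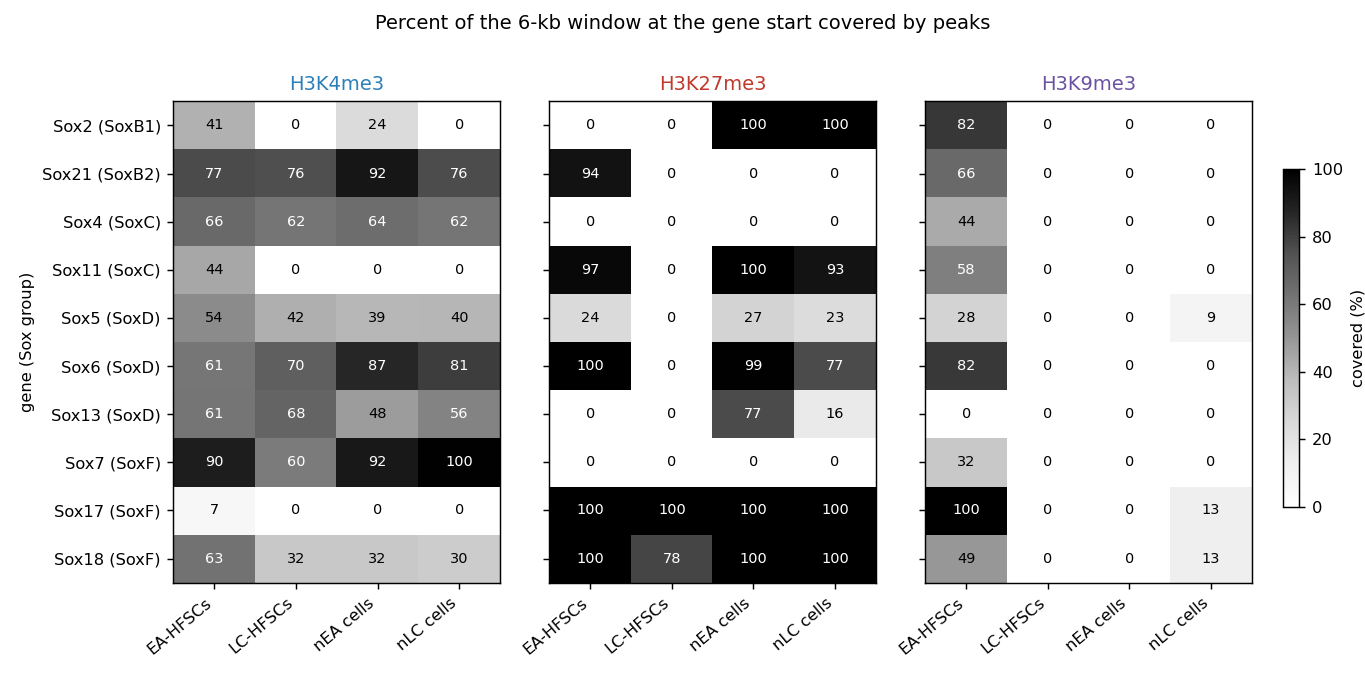
Percent of the 6001-bp window around the start of each gene that lay under peaks of each list, with genes in rows by Sox group and populations in columns. The H3K27me3 panel shows Sox17 and Sox18 covered in all 4 populations, Sox2 and Sox13 in the non-HFSCs only, Sox21 in EA-HFSCs only, and Sox4 and Sox7 in none.

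Among the SoxB genes, Sox2 is a factor of pluripotent and neural progenitor cells that in skin marks dermal papilla cells of some follicle types and Merkel cells. It lies at chr3:34548927-34551383 on the plus strand. In EA-HFSCs an H3K4me3 peak of 2469 bp with a score of 238 covered the start, and in nEA cells a peak of 1420 bp with a score of 121 did (the score of a peak is its p-value as a negative log10, times 10). LC-HFSCs and nLC cells had no H3K4me3 peak there, and their nearest began 12981 and 13604 bp downstream of the start. A peak at that downstream position was present in all 4 lists, so the lists differed at the start and not at this site. When each H3K4me3 list was shortened to its 14718 top-scoring peaks, the length of the LC-HFSC list, the EA-HFSC peak at the start remained and the nEA peak did not.

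H3K27me3 split the sorted populations at Sox2. In nEA cells a single domain of 39780 bp, from -14188 to 25591 bp relative to the start, covered the whole window with a score of 1319. In nLC cells the domain was 36753 bp wide, from -13309 to 23443 bp, with a score of 976. These were the widest H3K27me3 peaks over any of the 10 starts, wider than 99.75% and 99.9% of the peaks in their lists. In EA-HFSCs and LC-HFSCs no H3K27me3 peak reached the window, and the nearest ended 14116 and 19310 bp upstream. H3K9me3 was present in EA-HFSCs alone, with 4934 bp of the window under 3 peaks. Within 30 kb of the start 11 H3K9me3 peaks of EA-HFSCs covered 33.4 kb, over much of the stretch that the H3K27me3 domain filled in the non-HFSCs. LC-HFSCs had no H3K9me3 peak within 30 kb, and its nearest was 1227443 bp away. The combination of marks over the 12 lists seen at Sox2 was shared by 5 of the 22367 genes, Sox2 included. It rests in part on the nEA H3K4me3 call, which did not remain with lists of equal length. Small numbers were not particular to Sox2: the combinations of Sox17, Sox18 and Sox5 were held by 24, 42 and 46 genes. That of Sox4 and Sox7 was held by 5746.

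Sox21, a SoxB gene with a role in the hair shaft cuticle, lies at chr14:118632454-118636252 on the minus strand. H3K4me3 covered its start in every population, with widest peaks of 8716 bp in EA-HFSCs, 7681 bp in LC-HFSCs, 4396 bp in nEA cells and 7690 bp in nLC cells. The EA-HFSC, LC-HFSC and nLC peaks were wider than 99.2%, 99.35% and 99.7% of their lists. In nEA cells the domain was called as 3 peaks that together covered 5538 bp of the window, more than the 4618, 4534 and 4579 bp of the other lists.

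At Sox21 the repressive marks were called in EA-HFSCs alone. H3K27me3 covered 5612 bp of the window in 2 peaks, the wider of 15996 bp from -1591 to 14404 bp. That peak had a score of only 49.0, which is higher than 23.5% of the list, and the other, of 2153 bp, had a score of 137. H3K9me3 covered 3962 bp in 2 peaks, the wider of 2999 bp with a score of 257. The nearest H3K27me3 peak was 858797 bp away in LC-HFSCs, 83729 bp in nEA cells and 64146 bp in nLC cells. The EA-HFSC H3K27me3 peaks were not among the 1909 highest-scoring of that list, the number in the LC-HFSC list, so the call at Sox21 ended when the lists were made equal in length. In the full lists Sox2 and Sox21 were thus marked in opposite populations: non-HFSCs for H3K27me3 at Sox2 and EA-HFSCs at Sox21.

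**Figure D3:**
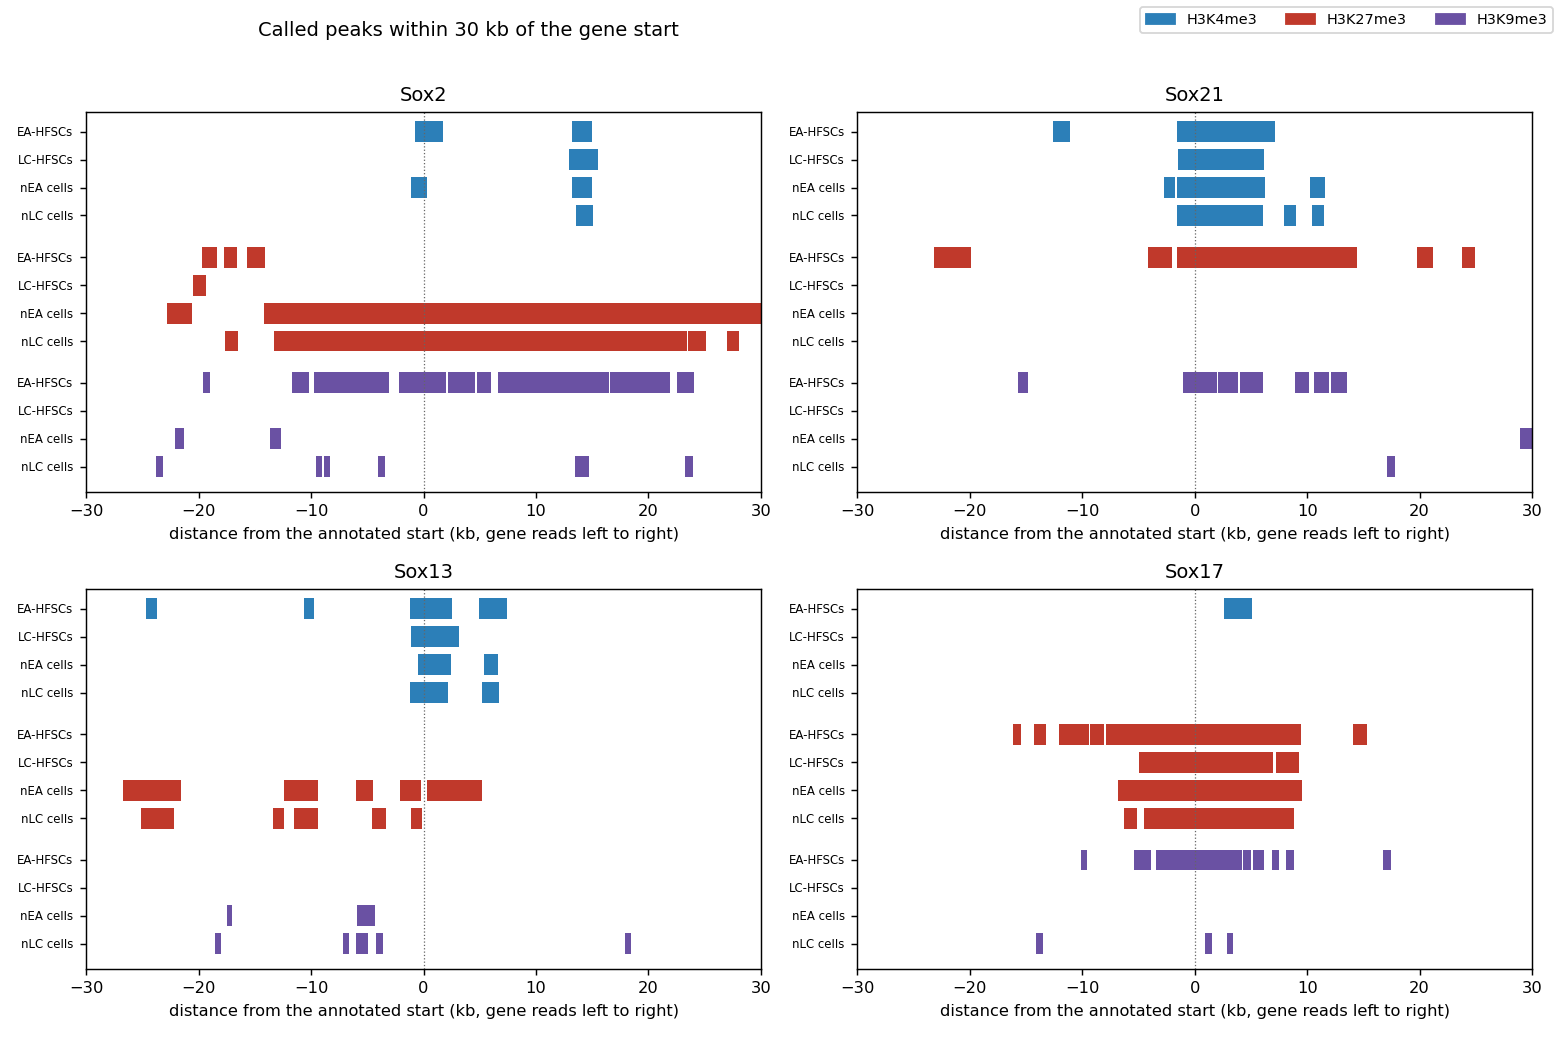
Called peaks of the 3 marks (colours) in the 4 populations (rows) within 30 kb of the starts of Sox2, Sox21, Sox13 and Sox17, with distance from the annotated start in kb and each gene reading left to right. At Sox2 the H3K27me3 domains of the non-HFSCs (39780 and 36753 bp) span the stretch over which EA-HFSCs have H3K9me3 peaks, and at Sox17 H3K27me3 covers the start in all 4 populations.

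The SoxC genes are activators expressed in progenitors of many tissues. Sox4, at chr13:29040788-29045582 on the minus strand, carried H3K4me3 over its start in all 4 populations, with 3970, 3696, 3868 and 3700 bp of the window covered in EA-HFSCs, LC-HFSCs, nEA cells and nLC cells. The peaks were 6559, 5102, 6315 and 4785 bp wide in the same order, each wider than at least 96.3% of its list, and covered from 85.2% to 100% of the gene body. Scores were 3100 in 3 of the lists, a value shared by 4237 peaks across the lists, and 473 in LC-HFSCs. No H3K27me3 peak lay within 30 kb of Sox4 in any population. H3K9me3 covered 2611 bp in EA-HFSCs, in 2 peaks, and 0 bp in the others.

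Sox11, at chr12:28025562-28027574 on the minus strand, had the reverse pattern. H3K4me3 was called in EA-HFSCs only, in 2 peaks covering 2653 bp of the window, the one over the start with a score of 214. In LC-HFSCs, nEA cells and nLC cells the nearest H3K4me3 peak was 863396, 261558 and 872250 bp away. H3K27me3 covered 5825 bp in EA-HFSCs, 6001 bp in nEA cells and 5580 bp in nLC cells, with widest peaks of 11080, 11440 and 4749 bp and scores of 2379, 1710 and 610. Each of these scores was higher than at least 94.4% of its list. In nLC cells the stretch was called as 2 adjacent peaks, from -2620 to 164 bp and from 206 to 4954 bp. In LC-HFSCs the window held no peak of any mark, and the nearest H3K27me3 peak was 4215290 bp away. H3K9me3 in EA-HFSCs was split into 5 short peaks of at most 1270 bp, with scores from 43.2 to 93.0.

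Sox2 and Sox11 were the genes with no mark at the start in LC-HFSCs. The other 8 of the 10 had H3K4me3 (7 genes) or H3K27me3 alone (Sox17) in the LC-HFSC lists. Over all genes LC-HFSCs had H3K4me3 at 53.9% of starts, H3K27me3 at 3.39% and H3K9me3 at 0.295%. A start without any mark was thus common in LC-HFSCs and is no particular trait of Sox2 and Sox11.

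The SoxD genes lack an activation domain and form dimers, and Sox5 and Sox6 are known as partners of Sox9 in cartilage. Sox6, at chr7:122614858-123182258 on the minus strand, was marked by H3K4me3 at its start in all 4 populations. The covered length was 3658 bp in EA-HFSCs, 4180 bp in LC-HFSCs, 5219 bp in nEA cells and 4836 bp in nLC cells. The nEA peak of 11289 bp was the widest H3K4me3 peak over any of the 10 starts, wider than 99.9% of its list. The other lists called this stretch as separate peaks, in nLC cells from -2082 to 2195 bp and from 2443 to 8404 bp. The LC-HFSC peak over the start had a score of 87.7, higher than 16.3% of its list. Another LC-HFSC peak, from 3284 to 8413 bp and thus outside the window, had a score of 262. H3K27me3 covered the whole window in EA-HFSCs (6001 bp, under a peak of 13093 bp), 5954 bp in nEA cells and 4608 bp in nLC cells. No LC-HFSC peak of H3K27me3 lay nearer than 681082 bp. The EA-HFSC and nLC peaks at the start remained among the 1909 highest-scoring of their lists and the nEA peak did not. In EA-HFSCs an H3K9me3 peak of 7342 bp with a score of 542 also covered the start, higher than 99.2% of that list.

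The body of Sox6 is 567401 bp long, and H3K27me3 was spread along it in EA-HFSCs. There were 63 H3K27me3 peaks over the body in EA-HFSCs, 12 in nEA cells, 8 in nLC cells and 0 in LC-HFSCs. They covered 24.2%, 6.56%, 2.74% and 0% of the gene. Among the 2401 protein-coding genes of at least 100 kb, the median cover by H3K27me3 was 0% in each list, and 98.5%, 91.0% and 89.7% of these genes had less than Sox6 in EA-HFSCs, nEA cells and nLC cells. In LC-HFSCs 2143 of these 2401 genes had no H3K27me3 peak over the body, so its absence there is no particular trait of Sox6. H3K9me3 covered 6.02% of the Sox6 body in EA-HFSCs under 38 peaks, more than in 98.2% of the long genes. In nEA cells and nLC cells the body held 1 and 6 H3K9me3 peaks, over 0.128% and 0.739% of its length.

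Sox5 is longer still, with 953553 bp at chr6:143776945-144730497 on the minus strand, and its body was marked far less than that of Sox6. H3K27me3 covered 1.82% of it in EA-HFSCs under 10 peaks, 0.987% in nEA cells under 4, 0.135% in nLC cells under 1 and none in LC-HFSCs. Of the 2401 long genes, 78.8%, 68.8% and 67.9% had less cover than Sox5 in EA-HFSCs, nEA cells and nLC cells. The widest of the Sox5 body peaks, of 5270 bp in EA-HFSCs with a score of 504, began 574678 bp inside the gene, over 2 annotated internal transcript starts. At the start, H3K4me3 covered 3229, 2531, 2347 and 2381 bp in EA-HFSCs, LC-HFSCs, nEA cells and nLC cells. A narrow H3K27me3 peak lay just upstream of the start in 3 populations, ending 424 bp before it in EA-HFSCs, 312 bp in nEA cells and 486 bp in nLC cells, with widths of 1434, 1645 and 1397 bp and scores of 95.9, 88.0 and 84.4. Of the widest H3K27me3 peaks at each of the 10 starts, only that of nLC cells at Sox13 was narrower. All 3 calls at Sox5 ended with scores of at least 100 and with H3K27me3 lists of equal length. H3K9me3 covered 1662 bp at the Sox5 start in EA-HFSCs and 560 bp in nLC cells.

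**Figure D4:**
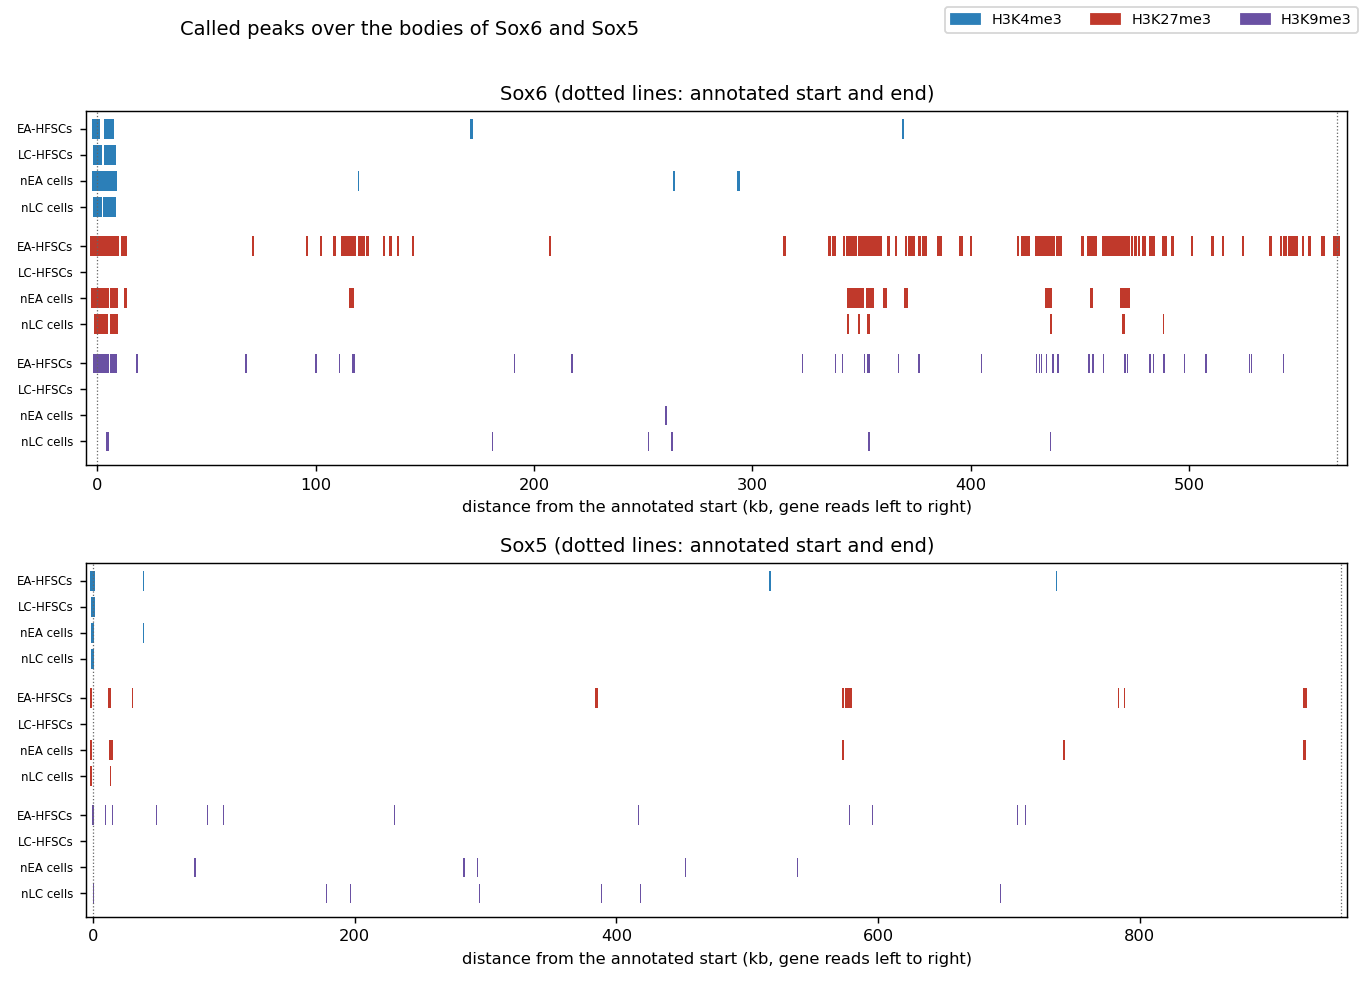
Called peaks of the 3 marks over the bodies of Sox6 and Sox5 in the 4 populations, with distance from the annotated start in kb and dotted lines at the start and end of the gene. H3K27me3 peaks run along Sox6 in EA-HFSCs (63 peaks), while Sox5 has 10 in EA-HFSCs. In LC-HFSCs both bodies have none, as do most genes of at least 100 kb (2143 of 2401 without a peak).

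Sox13, the remaining SoxD gene and a factor of γδ T cells, lies at chr1:135278880-135320954 on the minus strand. H3K4me3 covered its start in all 4 populations, over 3683, 4078, 2862 and 3389 bp in EA-HFSCs, LC-HFSCs, nEA cells and nLC cells. H3K27me3 was present in the non-HFSCs only. In nEA cells 2 peaks covered 4602 bp, a wider one of 4940 bp that began 297 bp downstream of the start with a score of 195, and one that ended 188 bp upstream of it with a score of 52.7. In nLC cells a single peak of 930 bp, with a score of 45.9, ended 181 bp upstream of the start. It was among the weakest calls at a Sox gene, and only 15.8% of its list had a lower score. In EA-HFSCs and LC-HFSCs the nearest H3K27me3 peak was 240559 and 792522 bp away, and the flanks of 30 kb held none. The non-HFSCs held 5 peaks each in those flanks, over 16.45 and 8.19 kb. Neither non-HFSC call at the start was left when the H3K27me3 lists were shortened to 1909 peaks, whereas both domains at Sox2 were.

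The SoxF genes act in endothelial cells, and Sox18 is mutated in ragged mice, which have vessel and coat defects. Sox17, also a factor of endoderm, lies at chr1:4481009-4486494 on the minus strand, and H3K27me3 covered all 6001 bp of its window in every population. The domains were 17373 bp wide in EA-HFSCs, 11875 bp in LC-HFSCs, 16352 bp in nEA cells and 13372 bp in nLC cells, and each covered the whole gene. In each list they were wider than at least 97.5% of the peaks. Their scores were 2464, 171, 1761 and 2713, and the LC-HFSC score was higher than 93.0% of its list. H3K4me3 was called at Sox17 in EA-HFSCs alone, at the far edge of the window, where 391 bp of a peak of 2507 bp began 2610 bp downstream of the start. It did not reach the start and was absent with a window of 2500 bp. H3K9me3 covered all 6001 bp in EA-HFSCs, under a peak of 7645 bp with a score of 891, and 768 bp under 2 peaks in nLC cells.

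Sox18, at chr2:181404541-181406345 on the minus strand, had both H3K4me3 and H3K27me3 over its start in all 4 populations. H3K27me3 covered 6001 bp of the window in EA-HFSCs, nEA cells and nLC cells and 4703 bp in LC-HFSCs, with peaks of 7824, 8979, 6822 and 4703 bp. H3K4me3 covered 3766 bp in EA-HFSCs, 1943 bp in LC-HFSCs, 1936 bp in nEA cells and 1830 bp in nLC cells, and in each population it lay within the H3K27me3 domain. The EA-HFSC H3K4me3 call ended with lists of equal length and the LC-HFSC call with scores of at least 100, so the gene was then bivalent in fewer populations. The H3K4me3 scores of 131, 82.15, 281 and 347 were low within their lists, where 25.35%, 14.6%, 43.8% and 39.55% of the peaks scored lower. H3K9me3 covered 2960 bp in EA-HFSCs and 765 bp in nLC cells.

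Sox7 differed from its group. At chr14:64562511-64569569 on the plus strand, it had H3K4me3 in all 4 populations, over 5414, 3572, 5499 and 5974 bp in EA-HFSCs, LC-HFSCs, nEA cells and nLC cells. No H3K27me3 peak lay within 30 kb of its start in any list, and the nearest were between 86391 and 197975 bp away. H3K9me3 covered 1945 bp in EA-HFSCs under 2 peaks with scores of 43.0 and 49.7, and no other of the 9 marked starts had so low a top score. The combination at Sox7 and Sox4, H3K4me3 in all lists and H3K9me3 in EA-HFSCs, is common and was shared by 25.7% of all genes.

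Marks over endothelial genes were few in all populations. Of 6 endothelial markers, Kdr, a receptor for vascular endothelial growth factor, was the one with H3K4me3, in all 4 lists and together with H3K27me3, and Cdh5, Pecam1, Tie1, Tek and Emcn had no H3K4me3 peak at the start. The 8 bulge markers, Cd34 and Lhx2 among them, all had H3K4me3 and no H3K27me3 in EA-HFSCs and LC-HFSCs. Most also had H3K4me3 in the non-HFSCs, 7 of 8 in nEA cells and 6 in nLC cells, and 4 and 3 of the 8 had it without H3K27me3. Cd34, the gene of the surface marker used in the sort, had H3K27me3 and no H3K4me3 in both non-HFSC lists. Of 5 basal keratinocyte markers, Krt5, Krt14 and Cdh3 had H3K4me3 in all 4 lists, and Itga6 and Trp63 had no H3K4me3 or H3K27me3 peak at the annotated gene start. Of 4 markers of Merkel cells, in which Sox2 is expressed, none had H3K4me3 without H3K27me3 in any population. Of 6 markers of dermal fibroblasts and papilla, 2 had H3K4me3 without H3K27me3 in EA-HFSCs, 3 in LC-HFSCs, 1 in nEA cells and 0 in nLC cells. Of 6 melanocyte markers 3 had H3K4me3 without H3K27me3 in each list except that of nLC cells, with 2, and of 4 leukocyte markers Cd68 alone did in every list. The part of other cell types in the Sox marks was not tested.

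Domain widths at the Sox starts were read beside those over all marked genes. For H3K27me3 the median of the widest peak over the marked Sox starts was 12086.5 bp in EA-HFSCs, 8289 bp in LC-HFSCs, 8979 bp in nEA cells and 6706 bp in nLC cells. The genes behind these medians differ and number 6, 2, 7 and 7, with Sox17 and Sox18 alone in LC-HFSCs. Over all genes marked by H3K27me3 the median was 3581, 3755, 4833 and 2956 bp. Within EA-HFSCs the H3K27me3 widths at the Sox starts ran from 1434 bp at Sox5 to 17373 bp at Sox17. For H3K4me3 the medians were 3670.5, 4180, 3629 and 4663 bp at the Sox starts and 3101.5, 2569, 2554 and 2307 bp over all marked genes. H3K9me3 peaks were narrower, with a median of 2016 bp at the 9 marked starts of EA-HFSCs beside 1300 bp over all marked genes.

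**Figure D5:**
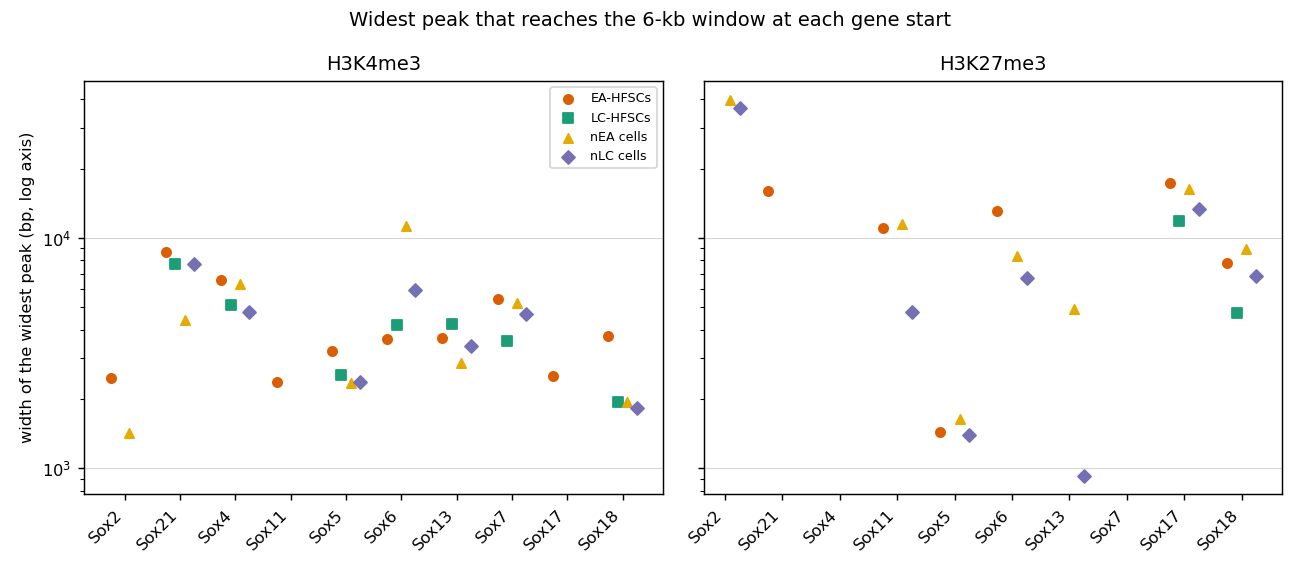
Width in bp, on a log axis, of the widest H3K4me3 peak (left) and H3K27me3 peak (right) that reached the start window of each gene in the 4 populations, with no point where no peak was called. Sox2 has the widest H3K27me3 peaks (39780 and 36753 bp) and Sox13 in nLC cells the narrowest (930 bp).

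Summed over the 10 windows, H3K27me3 covered 30874 bp in EA-HFSCs, 10704 bp in LC-HFSCs, 36205 bp in nEA cells and 30518 bp in nLC cells. Sox17 and Sox18 made up all of the LC-HFSC cover. For H3K4me3 the sums were 33851, 24534, 28689 and 26689 bp, and for H3K9me3 32448, 0, 0 and 2093 bp. The LC-HFSC sum was thus the lowest for H3K4me3 and H3K27me3, and equal to that of nEA cells at 0 for H3K9me3.

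The other Sox genes were counted in the same way, 9 of them being in the annotation used. H3K27me3 was called at 5, 0, 6 and 5 of the 9 in EA-HFSCs, LC-HFSCs, nEA cells and nLC cells. The shares of all genes were 13.0%, 3.39%, 15.6% and 11.9%. H3K4me3 was called at 7, 4, 6 and 4 of the 9, beside 60.4%, 53.9%, 59.6% and 56.6% of all genes. None of these 9 had H3K27me3 in LC-HFSCs, which is near the background and leaves Sox17 and Sox18 as the genes that did among these 9 and the 10. At Sox3 an LC-HFSC peak of H3K27me3 lay 3660 bp upstream of the start, outside the window. Sox1 was not analysed here. Sox9, the gene that maintains hair follicle stem cells, had H3K4me3 in all 4 populations and H3K27me3 in both non-HFSC lists and neither HFSC list. In this it was like Sox13 and unlike Sox8 and Sox10 of its own group, which had H3K27me3 in EA-HFSCs too.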

How the data were processed

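The labels describe 16 samples: H3K4me3, H3K27me3, H3K9me3 and IgG ChIP in 4 sorted populations. Per the labels and the methods of the study, the authors trimmed single-end reads to 1 length (Trimmomatic 0.22 is named), aligned them to mm9 with Bowtie2, pooled replicates and used MACS to call peaks, with IgG reads of that population as control. Each deposited list gives positions and a score, which is the p-value that the authors obtained, as a negative log10 and times 10. The minimum scores, 50 for H3K4me3 and 40 for the other marks, correspond to p-values of 1e-05 and 0.0001. No read numbers are in the lists. The methods of the study give read depth as ranges, which are higher for LC-HFSCs than for EA-HFSCs. Depth and background both affect which peaks pass a fixed threshold, and scores were therefore ranked within a list only. The score 3100 is shared by 4237 peaks, and 518 peaks score higher.

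Peaks were placed on GENCODE vM1 genes of NCBIM37, the assembly of mm9, with Python 3.11.15 and numpy 2.4.6. The 22367 protein-coding genes, and the shares over all genes, count every protein-coding gene model on the autosomes, X and Y. A gene looked up by name was represented by the longest model of its symbol, which set aside a second model named Sox4. A peak counted when it shared at least 1 bp with the 3000 bp to either side of the annotated start. Distances are 1-based, with upstream negative. The overlap and cover steps were tested on simulated peaks. No test between populations was made, since each has 1 list per mark, and no p-value is given.

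All 10 genes are named, other Sox genes by counts unless they differ from their group, and for each gene the non-Sox gene on another chromosome most alike in covered bp over the 12 lists. The genes, marker lists and alternatives were chosen with earlier results of these data known. Alternatives were score minimums of 50 and 100, lists of a mark shortened to the same length by score, windows of 2500 and 1000 bp, any transcript start, a cover of at least 500 bp, and merging of peaks less than 1 kb apart. The overlap of marks within a window and the cover of promoters were chosen after seeing the data. RefSeq promoters were matched by symbol and placed in NCBIM37 by exact match. The files of the 4 IgG samples were not analysed here.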

Additional observations from a re-analysis of the deposited data

Results flagged for a closer look

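H3K9me3 at the starts of Sox5, Sox17 and Sox18 went opposite ways between the stages in the HFSC and non-HFSC lists. In the HFSCs it was called in EA-HFSCs, over 1662, 6001 and 2960 bp of the window, and not in LC-HFSCs. In the CD34- cells it was called in nLC cells, over 560 bp at Sox5, 768 bp at Sox17 and 765 bp at Sox18, and not in nEA cells. All genes together moved the same way, from 45.2% with a peak in EA-HFSCs to 0.295% in LC-HFSCs and from 2.80% in nEA cells to 11.6% in nLC cells, so the direction is that of the whole lists. With 1 list per population and mark the difference was not tested. The nLC peaks had scores of at most 53.55, and none remained with a minimum score of 100.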

How the results depend on the processing

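Of the values recomputed under the 8 alternatives, 319 were within 1.5 times the reported value and 41 were not. Presence of a peak changed in 18 of the 120 pairs of gene and list with an equal number of top-scoring peaks, in 12 with a score of at least 100, in 3 with at least 50, in 1 each with windows of 2500 and 1000 bp and a cover of 500 bp (H3K4me3 at Sox17 in EA-HFSCs each time), in 1 with any transcript start, where Sox6 gained H3K9me3 in nLC cells, and in 0 with merged peaks.

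With an equal number of top-scoring peaks, the members with H3K27me3 in nEA cells numbered 4 and those with H3K9me3 4 in EA-HFSCs and 0 in nLC cells. Bivalent starts then numbered 2 in EA-HFSCs, 1 in nEA cells and 2 in nLC cells, and starts with all 3 marks 1 in EA-HFSCs and 0 in nLC cells. The summed window cover was 24004 bp for H3K27me3 in nEA cells, 18837 bp for H3K9me3 in EA-HFSCs and 0 bp in nLC cells. The median width was 13896 bp for H3K27me3 in nEA cells and 5170.5 bp for H3K9me3 in EA-HFSCs. The share of the summed gene bodies under H3K27me3 was 3.10% in EA-HFSCs and 0.739% in nEA cells, from 10.54% and 3.98% in the full lists. For H3K9me3 it was 1.07% in EA-HFSCs, 0% in nEA cells and 0% in nLC cells, from 3.94%, 0.356% and 0.707%. Most of that summed length belongs to Sox5 (953553 bp) and Sox6 (567401 bp). Sox21 lost H3K27me3 in EA-HFSCs and Sox13 in both non-HFSC lists, while Sox2 and Sox17 had it in the same populations as before.

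With a score of at least 100, H3K9me3 was at 0 starts in nLC cells, with 0 bp covered. Starts with all 3 marks numbered 3 in EA-HFSCs and 0 in nLC cells, and bivalent ones 0 in LC-HFSCs and 2 in nLC cells. Bodies were covered by H3K9me3 over 1.61% in EA-HFSCs, 0% in nEA cells and 0% in nLC cells. With a score of at least 50, 1 start had all 3 marks in nLC cells, where H3K9me3 covered 896 bp, and bodies were covered over 0.149% and 0.399% in nEA cells and nLC cells. Under the window of 1000 bp, which is narrower by construction, the summed cover in EA-HFSCs, LC-HFSCs, nEA cells and nLC cells was 17375, 13284, 14067 and 13132 bp for H3K4me3 and 10582, 4002, 12211 and 11299 bp for H3K27me3, and 15725 bp for H3K9me3 in EA-HFSCs. Merging raised the median H3K9me3 width in EA-HFSCs to 6276 bp.

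No paired analysis was possible because each population and mark has 1 list made from pooled replicates. Leaving out a replicate could not be run for the same reason. A gene without a peak was not called at the threshold of its list, which does not show that the mark is absent, and the lists hold no read numbers.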

Other observations

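By covered length in the start window over the 12 lists, the gene most like Sox11 was Rspo1, which encodes a secreted Wnt agonist, with a summed difference of 1332 bp beside a summed cover of 23529 bp at Sox11. For Sox4 it was Gja1, a gap junction gene, with 449 bp, and for Sox17 it was Insl3, with 572 bp. The closest genes to Sox7, Sox13 and Sox5 were Elf2 (2331 bp), Fermt2 (2621 bp) and Nucks1 (2812 bp). Sox18, Sox21, Sox2 and Sox6 had more distant nearest genes, Shc3 (3548 bp), A530084C06Rik (3712 bp), Dusp15 (5231 bp) and Gdnf (5507 bp). The likeness is a sum of absolute differences over 12 lists and is given as a description.

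Among the Sox genes outside the 10, Sox14 of group SoxB2 had H3K27me3 over all 6001 bp of its window in EA-HFSCs, nEA cells and nLC cells and none in LC-HFSCs, with peaks of 20264, 22217 and 17791 bp. Sox21 of the same group had H3K27me3 in EA-HFSCs only. Sox3 of group SoxB1 had H3K27me3 in EA-HFSCs, over 6001 bp, where Sox2 of the same group had 0 bp. In SoxC, Sox12 had the combination seen at Sox4, with H3K4me3 in all 4 populations and no H3K27me3.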
